A study of Mus musculus with 8 samples.

Results

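Heme synthesis was followed through the RNA of 9 genes: the pathway enzymes Alas1, Alas2, Alad, Uros, Urod, Cpox, Ppox and Fech, and the mitochondrial carrier Slc25a38. They were selected by gene symbol. All 9 were among the 15142 genes listed in all 3 expression tables and among the 11351 genes with enough signal to be tested, which had to reach 1 FPKM in at least 2 libraries. FPKM counts fragments for each kilobase of a gene, corrected for how deeply a library was sequenced.

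RNA-seq was performed on hematopoietic stem cells (HSCs) of C57BL/6 mice labelled WT. Control BM HSC (3 libraries) came from the bone marrow of mice labelled as given PBS, which the study calls untreated. PHZ BM HSC (3 libraries) and PHZ SP HSC (2 libraries) came from the bone marrow and the spleen of mice given 60 mg/kg phenylhydrazine (PHZ) in 2 intraperitoneal injections on consecutive days, with cells taken at day 3 after the last. PHZ destroys circulating red cells, which leads to hemolytic anemia. The labels give no age or sex, and the methods describe adult mice of both sexes. HSCs were sorted as lineage-negative, Sca-1+, c-kit+, CD150+ and CD48-/low cells, and the lineage antibodies were against Ter119, a surface mark of maturing red cells, B220 of B cells, Gr-1 of granulocytes, and CD2, CD3 and CD8 of T cells. PHZ SP HSC was compared with control BM HSC (spleen against control) and with PHZ BM HSC (spleen against PHZ marrow), and the marrow groups with each other (PHZ marrow against control). Spleens without PHZ were not analysed here, and in spleen against control the tissue and the treatment cannot be told apart. The study calls the numbers beside its figure of these data independent animals, although it gives none there for the RNA-seq, and the labels do not say whether replicates were separate animals. The p-values measure the spread between these samples, which may in part be technical.

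Heme is an iron-containing ring that carries oxygen in hemoglobin and electrons in mitochondrial cytochromes. Its synthesis opens in the mitochondrion, where glycine and succinyl-CoA are joined by 5-aminolevulinate synthase, continues in the cytosol, and returns to the mitochondrion for the last steps. The synthase has a form used by most cells (Alas1), which heme represses, and an erythroid form (Alas2), whose translation depends on iron. Red cell precursors make most of the heme in the body and turn up the whole pathway as they mature.

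Between 8222362 and 13212932 reads were counted per library, and the ribosomal RNA precursor Rn45s made up 43.3% to 48.5% of them. The HSC label was checked against 10 HSC marker genes. All 10 were above 0 in every group, and their summed level was 413 to 551 FPKM in control BM HSC, 459 to 557 in PHZ BM HSC and 506 to 528 in PHZ SP HSC. None of the 10 passed the adjusted limma test in any comparison, and 5, 3 and 1 had an unadjusted p below 0.05 in the order given above. Marrow columns carry the name WBM where the sample titles say BM HSC, and they were read as the sorted HSCs of the titles.

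RNA of all 9 genes was detected in every library, at levels that differed widely along the pathway. Urod and Alad were the most abundant, with means of 29.7 and 28.6 FPKM in control BM HSC, at percentiles 90.7 and 90.3 of all genes tested. Ppox followed at 12.3 FPKM. The other 6 genes had means between 1.74 FPKM (Cpox) and 4.26 FPKM (Uros) in control BM HSC. In that group Ppox stood apart from its neighbours in the order of levels, and every other pair of neighbours overlapped between libraries.

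In PHZ BM HSC the order was Urod, Alad, Ppox, Slc25a38, Alas1, Alas2, Fech, Uros and Cpox. Ppox, Slc25a38 and Cpox stood apart from their neighbours and the other neighbours overlapped. In PHZ SP HSC the order was Alad, Urod, Ppox, Slc25a38, Alas2, Alas1, Fech, Cpox and Uros. There Ppox stood apart, Alas2 was above Alas1 in both libraries, and the other neighbours overlapped.

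These orders depend on the gene length behind each FPKM value. The deposited values divide by 6174 bases for Alas1 and 2403 bases for Alas2, which equal the merged lengths of all annotated exons, while the longest principal transcripts have 3399 and 2037 bases. The length used was 1.18 times (Alas2) to 2.48 times (Ppox) the principal transcript, so levels of different genes can be compared only roughly. The ratio of a gene's FPKM between groups does not depend on the length. Log2 fold changes of FPKM + 1 do depend on it for low genes, because the 1 is added after the division by length.

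**Figure D1:**
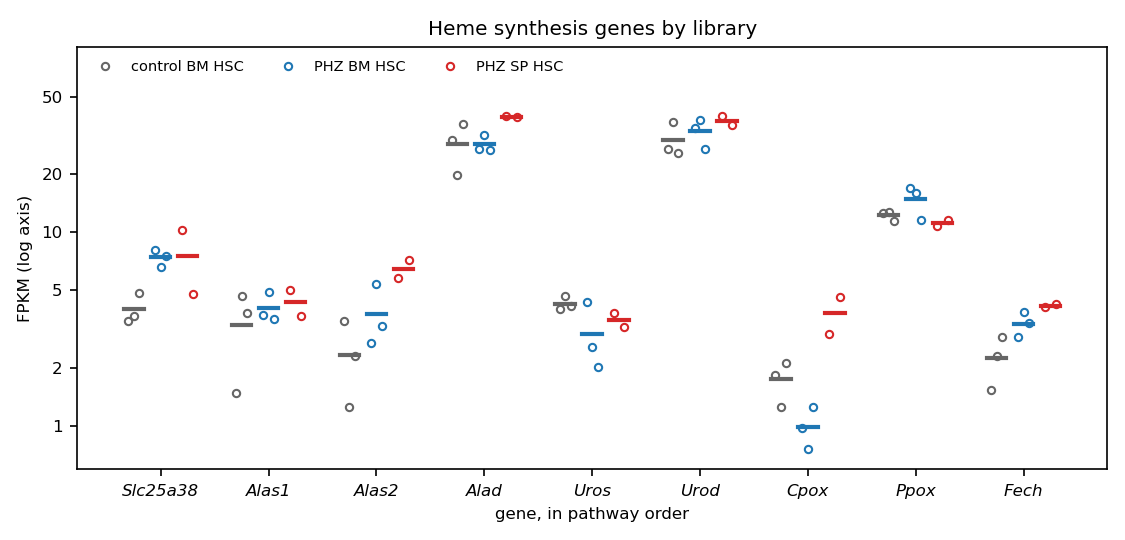
FPKM on a log axis (vertical) of the genes in pathway order (horizontal), with a circle for each library and a bar at the group mean, for control BM HSC (3 libraries), PHZ BM HSC (3) and PHZ SP HSC (2). Alad and Urod lie between 19.6 and 39.6 FPKM in every library, whereas Cpox runs from 0.76 FPKM in PHZ BM HSC to 4.65 FPKM in PHZ SP HSC.

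Slc25a38 brings glycine, a substrate of the synthase, into the mitochondrion (Entrez gene 208638, chromosome 9, 120110377 to 120126093, build GRCm38, protein coding). Its level was 3.48, 3.68 and 4.86 FPKM in the 3 control BM HSC libraries, 8.12, 6.61 and 7.55 FPKM in PHZ BM HSC, and 10.2 and 4.81 FPKM in PHZ SP HSC. The PHZ BM HSC libraries were all above the control libraries, and the 2 spleen libraries lay far apart, on either side of PHZ BM HSC. The log2 fold change of FPKM + 1 was 0.76 ± 0.27 (SE, limma adjusted p = 0.168) in PHZ BM HSC and 0.70 ± 0.30 (adjusted p = 0.286) in PHZ SP HSC, each against control BM HSC. The second of these rested on 2 distant libraries and was 0.23 when PHZ SP HSC replicate 1 was left out and 1.17 when replicate 2 was. In spleen against PHZ marrow it was -0.06 (95% confidence interval -0.71 to 0.59, adjusted p = 0.959), and leaving out PHZ SP HSC replicate 1 gave -0.53 where leaving out replicate 2 gave 0.41.

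Alas1, the synthase of most cells (Entrez gene 11655, chromosome 9, 106233455 to 106247954, minus strand), had 1.48, 4.66 and 3.81 FPKM in control BM HSC. It had 3.74, 4.91 and 3.56 FPKM in PHZ BM HSC and 5.001 and 3.70 FPKM in PHZ SP HSC. Apart from control BM HSC replicate 1, which had 89 reads and the lowest level, the libraries of the 3 groups lay between 3.56 and 5.001 FPKM. The fold change was 0.38 ± 0.35 (limma adjusted p = 0.634) in spleen against control and 0.31 ± 0.31 (adjusted p = 0.671) in PHZ marrow against control. Without control BM HSC replicate 1 these were 0.027 and -0.050, and without replicate 2 they were 0.62 and 0.54. Between the spleen and marrow of PHZ mice the difference was 0.08, with a 95% confidence interval of -0.69 to 0.84 and a range of -0.10 to 0.25 on leaving out each library.

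Alas2, the erythroid synthase (Entrez gene 11656, chromosome X, 150547417 to 150570622, plus strand), was low in marrow and higher in spleen. It had 3.46, 1.25 and 2.31 FPKM in control BM HSC, from 81, 27 and 71 reads. It had 2.67, 5.42 and 3.26 FPKM in PHZ BM HSC and 5.83 and 7.14 FPKM in PHZ SP HSC. Both spleen libraries were above all 6 marrow libraries, and the marrow groups overlapped. Among all genes tested, its mean stood at percentile 25.9 in control BM HSC, 41.8 in PHZ BM HSC and 58.0 in PHZ SP HSC.

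The fold change of Alas2 in spleen against control was 1.21 ± 0.34 on the log2 scale, with a 95% confidence interval of 0.46 to 1.97 (limma adjusted p = 0.122). Against PHZ BM HSC it was 0.68 ± 0.34 (adjusted p = 0.423), and PHZ BM HSC exceeded control BM HSC by 0.53 ± 0.31 (adjusted p = 0.414). The difference between the marrow groups became 0.28 on leaving out control BM HSC replicate 2 and 0.30 on leaving out PHZ BM HSC replicate 2. None of these passed the threshold of 0.05 after adjustment over all 11351 genes. In bulk RNA such as this, more cells that express Alas2 cannot be told apart from more Alas2 RNA per cell.

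As a sum, markers of erythroblasts, the red cell precursors, were highest in PHZ SP HSC, as was Alas2. Of 18 markers, 15 were listed in all tables, and none of these was at 0 in any group. Their summed level was 131 to 297 FPKM in control BM HSC, 186 to 353 FPKM in PHZ BM HSC and 972 to 1195 FPKM in PHZ SP HSC. Most of the PHZ SP HSC sum came from the globin genes Hbb-bt and Hba-a1, with means of 657 and 325 FPKM. In each comparison 14 of the 15 had a fold change above 0 and 1 had one below. Of the 15, 7 rose in spleen against control, 3 rose against PHZ BM HSC and 0 differed between the marrow groups (limma adjusted p), where 2 had an unadjusted p below 0.05. Their part in the Alas2 values was not tested.

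The stretch upstream of Alas2 is shown with that of Cpox, since these members had the largest fold changes of the 9 between PHZ SP HSC and a marrow group. Both are the plus strand 5′ to 3′ from RefSeq on build GRCm38.p6, and capitals mark letters of the GATA motif, to which erythroid GATA factors bind (GATAA preceded by A or T, or likewise the letters GATAG, on either strand). The Alas2 stretch is chrX:150547167-150547374 and stops short of annotated exon sequence. The Cpox stretch is chr16:58669958-58670207 and ends at the base before the gene.

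Alas2: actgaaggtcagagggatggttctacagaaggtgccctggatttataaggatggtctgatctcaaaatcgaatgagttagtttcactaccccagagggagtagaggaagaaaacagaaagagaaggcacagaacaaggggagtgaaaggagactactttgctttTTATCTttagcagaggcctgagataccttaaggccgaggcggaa

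Cpox: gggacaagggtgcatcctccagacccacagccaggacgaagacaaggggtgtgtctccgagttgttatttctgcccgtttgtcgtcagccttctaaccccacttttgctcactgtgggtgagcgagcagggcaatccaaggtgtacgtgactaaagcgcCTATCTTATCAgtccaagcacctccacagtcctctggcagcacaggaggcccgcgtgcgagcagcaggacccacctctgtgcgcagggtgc

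Alas2 carried 1 GATA match, at -86 from the RefSeq start, and Cpox carried 2 overlapping matches, at -91 and -86, all on the reverse strand. Alas2 also held 3 overlapping matches to CCACCC, the letters bound by KLF factors such as Klf1, at -40, -35 and -30, outside the printed stretch. GATA letters are common: 26.5% of 32851 such windows of 250 bases held a match, as did 28.1% for CCACCC, 4.46% for TGAGTCA (the core of the NF-E2 site) and 25.5% for the E-box, searched with the letters CAGATG and also in its form CAGCTG. Of the 9 members, 8 had a window. Besides Alas2 and Cpox, Uros held 2 GATA matches in the window of a downstream start, Alas1 held 1 CCACCC match and Urod held 2 E-box sites. Alad, Ppox and Slc25a38 held none of these letters. A match is a description of the letters and shows no binding.

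The Alas1 to Alas2 balance was expressed as the share of Alas2 in the summed FPKM of both genes. The share was 70.0%, 21.1% and 37.7% in control BM HSC, 41.7%, 52.5% and 47.8% in PHZ BM HSC, and 53.8% and 65.9% in PHZ SP HSC. The control libraries spanned both other groups, with Alas2 predominant in replicate 1 and Alas1 in replicates 2 and 3. The spleen libraries were both above the 3 PHZ BM HSC libraries. On the scale log2((Alas2 + 1)/(Alas1 + 1)), group means were -0.34 ± 1.10 (SD, n = 3), -0.12 ± 0.24 (n = 3) and 0.49 ± 0.43 (n = 2).

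PHZ SP HSC exceeded PHZ BM HSC by 0.60 on this scale (exact permutation test, two-sided, p = 0.2, the smallest that 2 against 3 libraries allow, 0.6 adjusted over the 3 comparisons). It exceeded control BM HSC by 0.83 (exact permutation p = 0.6, adjusted 0.7), and PHZ BM HSC exceeded control BM HSC by 0.23 (exact permutation p = 0.7, adjusted 0.7, smallest possible 0.1). Single libraries moved all 3 differences. On leaving out PHZ SP HSC replicate 2, spleen exceeded PHZ BM HSC by 0.30 and control BM HSC by 0.53, and on leaving out replicate 1 it exceeded PHZ BM HSC by 0.91. On leaving out control BM HSC replicate 2, spleen exceeded control by 0.34, and on leaving out replicate 1 by 1.42. The difference between the marrow groups was -0.27 and 0.82 in these last settings. With the principal transcript lengths, an alternative added after seeing the data, the shares were 60.3%, 14.8% and 28.2%, then 31.7%, 41.8% and 37.3%, and then 43.1% and 55.6%. The differences between groups were then 0.62, 0.82 and 0.20 in the same order. Whether Alas2 or Alas1 predominated therefore depended on the length, and the 3 differences kept their signs under this change of length.

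**Figure D2:**
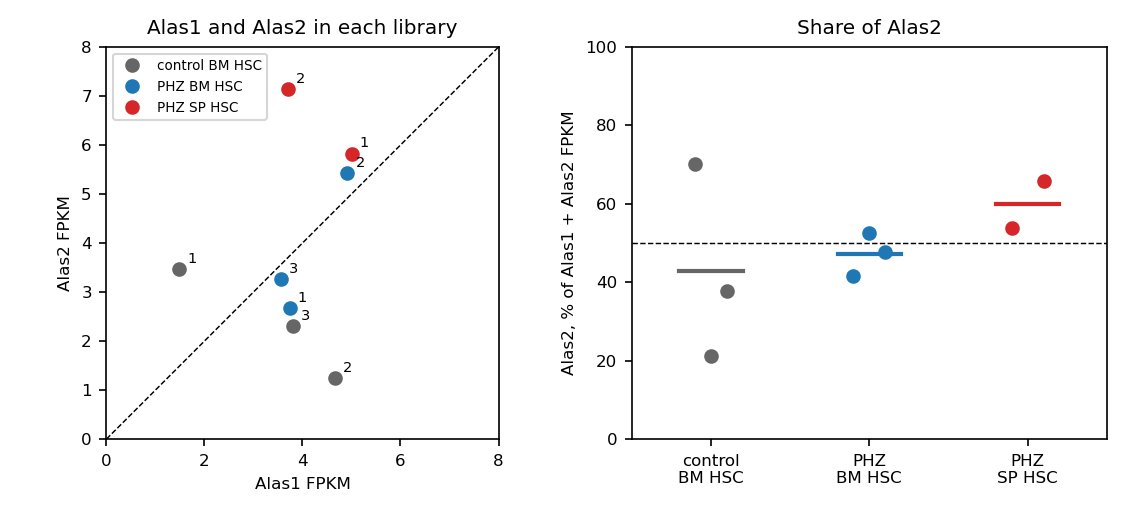
Left, Alas2 against Alas1 FPKM in each library, numbered by replicate, with the dashed line where both are equal. Right, Alas2 as a percentage of the summed FPKM of both genes, with a point for each library and a bar at the group mean (43.0% in control BM HSC, 47.3% in PHZ BM HSC and 59.8% in PHZ SP HSC); the 3 control libraries run from 21.1% to 70.0%.

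Alad, which joins 5-aminolevulinate into porphobilinogen (Entrez gene 17025, chromosome 4, 62505984 to 62520063, minus strand), was among the highest of the pathway. It had 29.96, 19.6 and 36.1 FPKM in control BM HSC, 26.7, 31.7 and 26.6 FPKM in PHZ BM HSC, and 39.6 and 39.1 FPKM in PHZ SP HSC. Both spleen libraries were above all marrow libraries, and the marrow groups overlapped. The fold change was 0.49 ± 0.23 against control BM HSC (limma adjusted p = 0.339) and 0.46 ± 0.23 against PHZ BM HSC (adjusted p = 0.423). The first of these was 0.25 when control BM HSC replicate 2, the lowest library, was left out. The marrow groups differed by 0.03, with a 95% confidence interval of -0.43 to 0.49, and this was -0.21 without control BM HSC replicate 2.

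Uros makes the ring compound uroporphyrinogen III (Entrez gene 22276, chromosome 7, 133686142 to 133710467, minus strand). It had 3.99, 4.66 and 4.15 FPKM in control BM HSC, 4.34, 2.57 and 2.02 FPKM in PHZ BM HSC, and 3.84 and 3.24 FPKM in PHZ SP HSC. Both spleen libraries were below the control libraries, unlike those of any other member, and inside the range of PHZ BM HSC. The fold change was -0.22 ± 0.29 against control BM HSC (limma adjusted p = 0.761) and 0.23 ± 0.29 against PHZ BM HSC (adjusted p = 0.791). In PHZ marrow against control it was -0.45 ± 0.26 (adjusted p = 0.414). On leaving out PHZ BM HSC replicate 3 the last 2 values were 0.053 and -0.27, on leaving out replicate 1 of that group they were 0.46 and -0.68, and the first was -0.12 on leaving out PHZ SP HSC replicate 2.

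Urod, which removes carboxyl groups from the ring (Entrez gene 22275, chromosome 4, 116989965 to 116994436, minus strand), had levels that overlapped between all groups. It had 26.9, 36.8 and 25.6 FPKM in control BM HSC, 34.5, 37.8 and 27.0 FPKM in PHZ BM HSC, and 39.5 and 35.7 FPKM in PHZ SP HSC. The highest library was in PHZ SP HSC and the lowest in control BM HSC. The fold change in PHZ SP HSC was 0.34 against control BM HSC (95% confidence interval -0.12 to 0.81) and 0.19 against PHZ BM HSC (-0.27 to 0.65). Between the marrow groups it was 0.15 (-0.26 to 0.57). Spleen against PHZ marrow came to 0.054 on leaving out PHZ BM HSC replicate 3, and PHZ marrow against control ran from 0.055 (leaving out PHZ BM HSC replicate 2) to 0.31 (leaving out control BM HSC replicate 2).

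Cpox is the coproporphyrinogen oxidase of the mitochondrial intermembrane space (Entrez gene 12892, chromosome 16, 58670208 to 58680391, plus strand). Its mean FPKM was the lowest of the 9 genes in both marrow groups. In control BM HSC it overlapped Fech, and with principal transcript lengths the mean of Alas2 was lower there (2.76 against 3.32 FPKM). Cpox had 1.84, 1.26 and 2.12 FPKM in control BM HSC, from 106, 67 and 160 reads. It had 0.97, 0.76 and 1.25 FPKM in PHZ BM HSC, from 60, 42 and 95 reads, and 2.99 and 4.65 FPKM in PHZ SP HSC, from 197 and 285 reads. All PHZ BM HSC libraries were below the control libraries and both spleen libraries were above them, so no groups overlapped. PHZ BM HSC replicate 3 (1.249 FPKM) was nearly level with control BM HSC replicate 2 (1.259 FPKM).

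Mean FPKM of Cpox in PHZ SP HSC was 3.85 times that in PHZ BM HSC, the largest ratio of the 9 genes in the 3 comparisons. The difference was 1.26 ± 0.30 on the log2 scale, with a 95% confidence interval of 0.61 to 1.91 (limma adjusted p = 0.0787). The adjusted p was 0.0494 when genes had to have at least 10 reads in every library, which left 10155 genes tested, and it ranged up to 0.292 over the 16 alternatives. Against control BM HSC the fold change was 0.81 ± 0.30 (adjusted p = 0.216), and in PHZ marrow against control it was -0.45 ± 0.27 (adjusted p = 0.422). The latter was -0.80 in voom and -0.74 with a pseudocount of 0.1 FPKM, and passed in neither.

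Markers of dividing cells also were lowest in PHZ BM HSC. The summed level of 10 such markers was 158 to 226 FPKM in control BM HSC, 54.4 to 96.6 FPKM in PHZ BM HSC and 175 to 177 FPKM in PHZ SP HSC, and none was at 0 in any group. Of the 10, 8 fell in PHZ marrow against control, 3 rose in spleen against PHZ marrow, and 0 passed in spleen against control (limma adjusted p), where 1 had an unadjusted p below 0.05. Their part in the Cpox values was not tested.

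Ppox, the protoporphyrinogen oxidase (Entrez gene 19044, chromosome 1, 171276991 to 171281193, minus strand), was not higher in spleen. It had 12.6, 12.8 and 11.4 FPKM in control BM HSC, 16.9, 16.0 and 11.6 FPKM in PHZ BM HSC, and 10.7 and 11.6 FPKM in PHZ SP HSC. Both spleen libraries were below all PHZ BM HSC libraries, although replicate 3 of that group was nearly level with the higher spleen library. The fold change was -0.36 ± 0.22 against PHZ BM HSC (limma adjusted p = 0.501) and -0.12 ± 0.22 against control BM HSC (adjusted p = 0.826), the latter -0.072 on leaving out PHZ SP HSC replicate 1. In PHZ marrow against control it was 0.24 ± 0.19 (limma adjusted p = 0.579). That value was 0.14 on leaving out PHZ BM HSC replicate 1 and 0.40 on leaving out replicate 3 of that group. In the annotation, 791 bases of Ppox exons (17.5%) overlap B4galt3 on the opposite strand.

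Fech, the ferrochelatase that inserts iron into protoporphyrin (Entrez gene 14151), completed the pathway. It had 1.53, 2.29 and 2.87 FPKM in control BM HSC, 2.86, 3.87 and 3.39 FPKM in PHZ BM HSC, and 4.10 and 4.24 FPKM in PHZ SP HSC. Both spleen libraries were above all marrow libraries, and the marrow groups met at 2.87 and 2.86 FPKM. In log2 terms the difference was 0.70 ± 0.27 in spleen against control (limma adjusted p = 0.243) and 0.45 ± 0.24 in PHZ marrow against control (adjusted p = 0.379). The latter was 0.29 on leaving out control BM HSC replicate 1. In spleen against PHZ marrow it was 0.25, with a 95% confidence interval of -0.35 to 0.85, and 0.16 on leaving out PHZ BM HSC replicate 1.

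Because strand handling is not given in the sources used here, reads of overlapping genes could be shared. Besides Ppox, annotated exons on the opposite strand overlap 12.9% of Alas2 exon bases (Apex2, with the small Mir3620 at 2.54%), 7.53% of Alas1 (4930500F10Rik) and 3.06% of Cpox (Gpr15).

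Spleen against control asks, step by step, whether spleen HSCs of anemic mice carry more RNA of the heme pathway than marrow HSCs of control mice. Of the 9 genes, 7 had a fold change above 0, as did 49.9% of all genes tested, and 2, Uros and Ppox, had one below 0. The median was 0.49, against -0.0012 over all genes tested. In limma 0 of 9 passed the adjusted threshold, which 0.758% of all genes did. Without adjustment 4 (Alas2, Cpox, Fech and Slc25a38) had p below 0.05, against 15.8% of all genes. In 4 genes (Alas2, Alad, Cpox and Fech) both spleen libraries were above every control library and in 1 (Uros) below, against 15.2% and 13.7% of all genes tested.

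PHZ SP HSC and PHZ BM HSC came from mice given the same treatment and differed by tissue. Again 7 genes were above 0, against 48.2% of all genes, and 2, Ppox and Slc25a38, below 0, with a median of 0.23 against -0.017 over all genes. In limma 0 of 9 passed the adjusted threshold, which 0.978% of all genes passed. Cpox was the 1 gene with an unadjusted p below 0.05, against 13.5% of all genes. Alas2, Alad, Cpox and Fech were above PHZ BM HSC in both spleen libraries and Ppox was below, against 17.5% and 17.4% of all genes.

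PHZ marrow against control compares treatment within marrow. The direction was above 0 for 7 genes, against 51.2% of all genes, and below 0 for Uros and Cpox, with a median of 0.24 against 0.01 over all genes. In limma 0 of 9 passed, against 2.74% of all genes. Slc25a38 was the 1 gene with an unadjusted p below 0.05, against 16.6%, and the 1 gene with every PHZ BM HSC library above every control library, against 12.3%. Cpox was the 1 gene with every library below, by a narrow margin, against 11.7%. In voom, a limma method for read counts run on reads worked back from the FPKM, 0 of 9 passed in each of the 3 comparisons. Of all 11351 genes, 74 passed in voom in spleen against control, 65 in spleen against PHZ marrow and 256 in PHZ marrow against control. The comparisons share libraries in pairs and are not independent of each other.

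**Figure D3:**
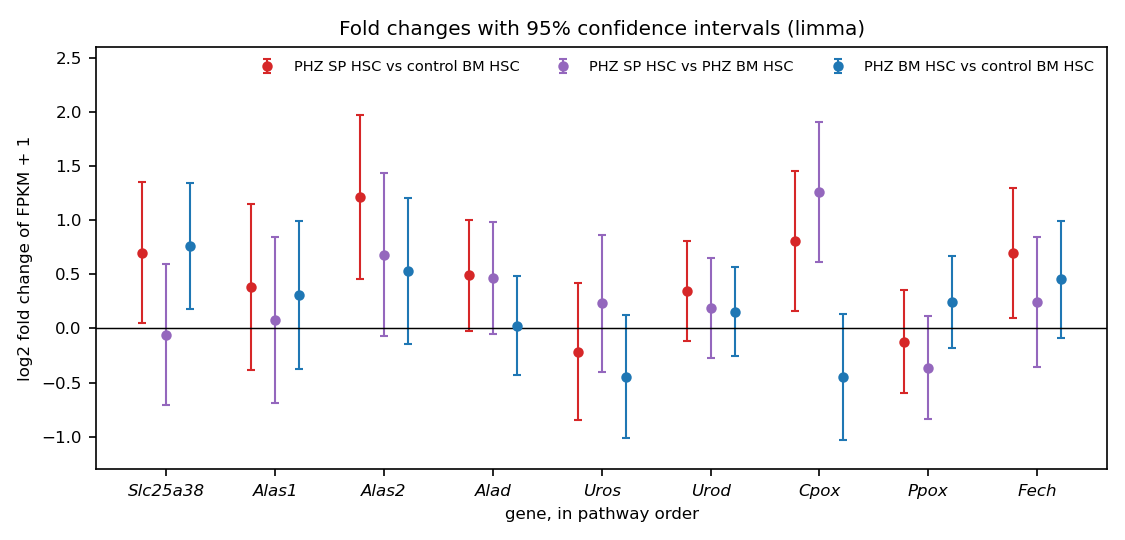
Log2 fold change of FPKM + 1 (vertical, limma) of the genes in pathway order (horizontal) in the 3 comparisons, with bars for 95% confidence intervals before adjustment for the number of genes. The intervals of Alas2, Cpox, Fech and Slc25a38 lie above 0 in spleen against control, and those of Uros and Ppox reach down to -0.85 and -0.60.

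Set among all genes tested, the member fold changes lay mostly in the upper part of the distribution. In spleen against control, Alas2 was at percentile 98.0, Cpox at 94.1, Fech at 92.1 and Slc25a38 at 92.0, while Uros was at 30.8. In spleen against PHZ marrow, Cpox was at percentile 98.3 and Alas2 at 93.5, while Ppox was at 19.7. In PHZ marrow against control, Slc25a38 was at percentile 94.8, while Cpox and Uros were at 12.8 and 13.2.

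**Figure D4:**
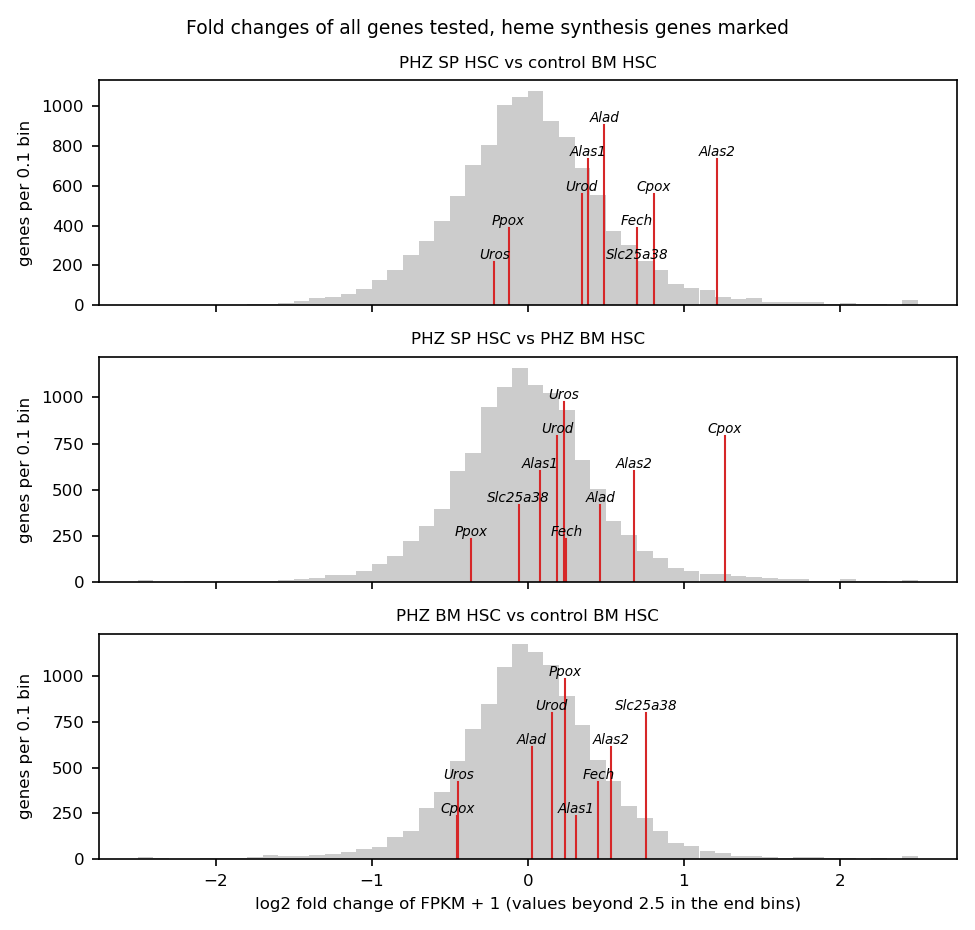
Number of genes per bin of 0.1 (vertical) by log2 fold change of FPKM + 1 (horizontal) for the 11351 genes tested, in the 3 comparisons from top to bottom, with red lines at the 9 heme synthesis genes, whose heights only separate the names. In spleen against control, Alas2 stands farthest to the right at 1.21, and in spleen against PHZ marrow, Cpox does at 1.26.

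Alas1 and Alas2 did not vary together over the 8 libraries, with a Pearson r of 0.064 of log2(FPKM + 1). Alas2 varied most like Alad among the members (r = 0.79) and Alas1 most like Fech (r = 0.73). Among all other genes tested, the 5 most like Alas2 were Hba-a1 (an alpha-globin gene, r = 0.95), Trim3 (0.95), Fbxw11 (0.95), Trim32 (0.93) and Timm44 (0.93), a part of the mitochondrial protein import machinery. Hba-a1 had a mean of 72.3 FPKM in control BM HSC, 100.04 FPKM in PHZ BM HSC and 325 FPKM in PHZ SP HSC, and its reads may be split with near-identical globin copies. The 5 most like Alas1 were Nup35 (r = 0.99), Rabl2 (0.98), Tusc2 (0.97), Ipp (0.97) and Hip1 (0.97). The 8 points share libraries and depth, and each set is the top of 11351 genes, so these values only describe.

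Genes around the pathway were taken as lists. Of 12 heme helpers (genes of mitochondrial transport, iron delivery and heme export), 11 were tested, and 0 rose and 0 fell in limma in any comparison, with 0, 1 and 0 at an unadjusted p below 0.05 in spleen against control, spleen against PHZ marrow and PHZ marrow against control. Their medians were -0.06, -0.13 and -0.01. Slc25a37, the mitochondrial iron importer, had 9.002 FPKM in PHZ SP HSC, 6.48 in PHZ BM HSC and 6.13 in control BM HSC. Of 7 genes that supply glycine and succinyl-CoA, 0 passed in any comparison, adjusted or unadjusted, with medians of 0.15, 0.24 and -0.17.

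Of 7 genes of heme sensing and breakdown, 0 passed in either comparison of PHZ SP HSC, with medians of 0.24 and 0.21 and 1 and 0 at an unadjusted p below 0.05. In PHZ marrow against control 1 passed, with a list median of 0.11: Nfe2l2, a factor of the oxidative stress response, rose from 14.4 to 25.4 FPKM (log2 fold change 0.79 ± 0.18, limma adjusted p = 0.0453), a call kept in 3 of 16 alternatives. Of the iron-regulatory RNA-binding proteins Aco1 and Ireb2, 0 passed in any comparison, adjusted or unadjusted, with medians of -0.15, -0.16 and 0.01.

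Of 8 erythroid regulators, 1 passed in each comparison. Klf1, an activator of erythroid genes, rose from 1.72 FPKM in control BM HSC to 9.36 FPKM in PHZ SP HSC (2.01 ± 0.36, limma adjusted p = 0.0363), a call kept in 7 of 16 alternatives. Ldb1, a partner of GATA and TAL1 complexes, fell from 15.6 FPKM in PHZ BM HSC to 6.94 FPKM in PHZ SP HSC (-1.07 ± 0.22, adjusted p = 0.0495), kept in 3 of 16. Gata2, a GATA factor of stem and progenitor cells, rose from 41.9 FPKM in control BM HSC to 76.6 FPKM in PHZ BM HSC (0.86 ± 0.16, adjusted p = 0.018), kept in 12 of 16. Gata1, the erythroid GATA factor, had 3.71, 5.07 and 7.41 FPKM in control BM HSC, PHZ BM HSC and PHZ SP HSC and did not pass in any comparison. The list medians were 0.04 in spleen against control, -0.30 against PHZ BM HSC and 0.34 between the marrow groups.

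Summed levels of neutrophil and macrophage markers were also highest in PHZ SP HSC, the group with the highest Alas2, Cpox and Fech. The summed level of 8 neutrophil markers was 324 to 668 FPKM in control BM HSC, 341 to 857 FPKM in PHZ BM HSC and 1314 to 1686 FPKM in PHZ SP HSC, with 1 of 8 (S100a8) past the threshold against each marrow group. All 8 had a fold change above 0 in both spleen comparisons, with medians of 1.30 and 1.61, and 4 and 6 had an unadjusted p below 0.05. Mean FPKM of Mpo and Elane was nonetheless lower in PHZ SP HSC (2.99 and 7.26) than in PHZ BM HSC (4.31 and 7.77). In PHZ marrow against control 0 of 8 passed in limma, the median was -0.14, and 2 had an unadjusted p below 0.05. That of 12 macrophage markers was 7.91 to 18.8, 9.43 to 22.4 and 40.7 to 65.7 FPKM, with Marco at 0 in both marrow groups. Most of this sum in PHZ SP HSC was Cd68, a lysosomal protein of macrophages, with means of 4.37, 10.5 and 46.2 FPKM in control BM HSC, PHZ BM HSC and PHZ SP HSC. The other 5 macrophage markers tested had means of 0.041 to 2.02 FPKM in PHZ SP HSC and 0.69 to 2.24 FPKM in control BM HSC. In spleen against control, 3 of the 6 tested were above 0 and the median was 0.016. Of these 3, C1qa and Spic had lower means in PHZ SP HSC (1.58 and 2.02 FPKM) than in control BM HSC (1.63 and 2.24 FPKM). In limma 0 of 6 passed in any comparison, where 2, 2 and 0 had an unadjusted p below 0.05.

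Summed levels of the remaining marker lists in spleen overlapped those of control marrow. Those of 6 B cell markers were 26.9 to 50.8 FPKM in control BM HSC, 28.3 to 30.6 FPKM in PHZ BM HSC and 38.4 to 54.0 FPKM in PHZ SP HSC, and in limma 0 of 3 tested passed in any comparison, where 2, 2 and 0 had an unadjusted p below 0.05. Those of 8 T and NK cell markers were 20.6 to 61.3, 31.4 to 49.4 and 44.1 to 52.0 FPKM, with Cd3d and Cd8a at 0 in control BM HSC. Of these 8, 2 were tested, and Klrb1c, an NK cell receptor, rose from 0.95 FPKM in control BM HSC and 2.58 FPKM in PHZ BM HSC to 16.6 FPKM in PHZ SP HSC (limma adjusted p = 0.000868 and 0.00479). The other, Nkg7, a protein of cytotoxic granules, had 36.8, 36.4 and 27.5 FPKM in control BM HSC, PHZ BM HSC and PHZ SP HSC, with log2 fold changes of -0.26 and -0.36 in the spleen comparisons that did not pass. Between the marrow groups 0 of 2 passed in limma, where 1 had an unadjusted p below 0.05. Those of 6 megakaryocyte markers were 117 to 138, 83.4 to 104 and 88.2 to 143 FPKM, and 0 of 6 passed in either spleen comparison in limma, where 2 and 4 had an unadjusted p below 0.05. In PHZ marrow against control 2 of them, the platelet chemokines Pf4 and Ppbp, fell. The lineage antibodies listed for the sort were Ter119, Gr-1, B220, CD2, CD3 and CD8, and whether cells of these marker lists remained was not tested. The part of all these markers in the values of the heme genes was not tested.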

How the data were processed

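RNA-seq libraries of sorted HSCs were made with SMART-Seq2 amplification and Nextera XT, without molecular identifiers, and PCR copies were thus counted as separate reads. Per the submitters' notes, STAR, mm10 and DESeq2 were used. The gene counter, annotation and strand setting are not given in the sources used here. The authors deposited FPKM values in a table per group, and tables of their own DESeq2 comparisons with fold changes and p-values, which were not used. The study tested counts, whereas FPKM were tested here.

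All 110442 FPKM values above 0 came out as whole reads (tolerance 0.001 reads). The deposited tables had been scaled over different library sets and were rescaled to median-of-ratios factors over all 8 libraries, by 1.05% at most. Genes at 1 FPKM or more in at least 2 libraries were tested with limma 3.58.1 in R 4.3.3 on log2(FPKM + 1), with intensity trend and robust variance, in 1 fit of 3 groups without covariates, two-sided, with Benjamini-Hochberg adjustment over 11351 genes. The pseudocount understates changes of low genes. Groups came from sample titles. The Alas1 to Alas2 balance was tested by exact permutation over libraries. The fit was tested on simulated data.

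The members and all gene lists (heme helpers, substrate supply, heme sensing and breakdown, erythroid regulators, iron-regulatory proteins, and HSC, erythroblast, neutrophil, macrophage, B cell, T and NK cell, megakaryocyte and dividing cell markers) were chosen with earlier results of these data known, and 1 gene of the heme helper list is not reported here. All members were named whatever their values, with the 5 genes most like Alas1 and Alas2 by Pearson r and genes of a list of which 5 or fewer passed; Slc25a37, Gata1 and Cd68 were named after their values were seen. Coordinates and upstream sequences are from RefSeq (GRCm38.p6), exon lengths and overlaps from GENCODE. Alternatives were the pseudocount, the filter, voom on recovered reads, the 2 groups alone, a replicate block, other scalings and leaving out each library.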

Additional observations from a re-analysis of the deposited data

How the results depend on the processing

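Each of the 27 member comparisons was recomputed under 16 alternatives. Of 432 values, 423 kept their direction and their side of the threshold, 8 changed sign in 4 comparisons, and 1 newly passed. None of the sign changes concerned a value past the threshold, and the cause was not tested. With at least 10 reads in every library, 1 member (Cpox, log2 fold change 1.26) passed in spleen against PHZ marrow, where fewer genes were tested. Alad in PHZ marrow against control was -0.017 in voom and -0.012 scaled by total reads without Rn45s. Leaving out each library in turn gave -0.21 to 0.21 for Alad and -0.050 to 0.54 for Alas1 in PHZ marrow against control. In spleen against PHZ marrow it gave -0.10 to 0.25 for Alas1 and -0.53 to 0.41 for Slc25a38. For the Alas2 to Alas1 balance in PHZ marrow against control it gave -0.27 to 0.82.

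Deviations of same-numbered libraries from their group means correlated between -0.008 and 0.06, and those of other pairs between -0.064 and 0.069. The deviations of the 2 spleen libraries mirror each other, so these values cannot decide whether same-numbered libraries came from the same mouse. With a replicate block, Slc25a38 in spleen against PHZ marrow was 0.0065, no member's call changed, and 73, 112 and 293 genes passed in spleen against control, spleen against PHZ marrow and PHZ marrow against control.

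In the same order, 86, 111 and 311 genes passed in the analysis reported and 46, 62 and 205 with no filter. In spleen against control 39 passed with a pseudocount of 0.1 FPKM and 43 with only the 2 groups, and in spleen against PHZ marrow 65 passed in voom. Leaving out each library gave 14 to 83, 5 to 148 and 114 to 306 genes, and 0 members in each. The lowest of these were without PHZ SP HSC replicate 1 in both spleen comparisons and without PHZ BM HSC replicate 2 in marrow; with 1 spleen library left, it was assumed to vary like the other groups. With 2 spleen libraries and 27 to 81 reads for Alas2 in control BM HSC, changes of low members were measured with little precision.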
